A study of Mus musculus with 24 samples.

Results

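The airway secretory genes described here are Scgb1a1, Tff2, Clca3a1, Bpifb1 and Reg3g, 5 of the 8251 genes named by a probe set of a single gene. Airway secretory is the name given to the set, and which lung cells express each gene was not tested. They were given as a list of names, and every probe set that the array annotation assigns to one of them by gene identifier was taken. This gave 6 probe sets (1 each for Scgb1a1, Tff2, Clca3a1 and Bpifb1, and 2 for Reg3g) of 12422 probe sets that are not controls, and each of the 6 was among the 8710 bright enough to be tested. The genes were chosen from earlier results of these data, the differences between bleomycin and saline in C57BL/6J lungs, where Tff2 and Scgb1a1 were lower at 24 h and Clca3a1 and Reg3g higher at 72 h. Differences that use C57BL/6J arrays of those times are therefore given as a description, without a p-value.

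The conducting airways are lined by ciliated cells and by secretory cells, of which the club cell is the main kind in the mouse. Club cells release Scgb1a1, an abundant small protein of the airway lining fluid. Mucus-producing cells arise from them when the airway is inflamed, and then make mucins, trefoil peptides, proteins of the CLCA family and antimicrobial lectins. Bleomycin is a drug that breaks DNA and is used to cause lung injury and scarring in mice.

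Lung RNA of C57BL/6J and BALB/c mice, inbred strains written C57BL-6J and BALB-c in the labels, was measured on 24 Affymetrix arrays. Bleomycin (1.5 U per kg) or saline had been given into the trachea, and lungs were taken at 24 h, 72 h or 14 d. Each of the 12 groups of strain, treatment and time had 2 arrays, called a and b after their titles, and nothing says that a and b came from separate mice, so the p-values measure only the spread between these arrays. By its title the series asks why strains differ genetically in their sensitivity to lung fibrosis, and the comparisons its design implies are bleomycin against saline in each strain and the strain difference in that response. No allele or other agent is named, and the ages and sexes of the mice, the number of mice behind each array and the part of the lung taken are not given in the sources used here. The titles were followed where other labels differ: for BALB/c the descriptions name bleomycin on the saline 72 h arrays, both agents on the saline 24 h arrays and several times on the bleomycin 24 h arrays, and for C57BL/6J they leave out the route on the saline 72 h arrays.

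Values are intensities, the brightness of a probe set on a linear scale, and array medians lay between 314 and 409. A log2 difference is a difference of means of log2(intensity + 91.7), with its standard error (SE) from the limma fit, and it understates the change of dim probe sets. A probe set was called when its limma p, adjusted over 8710 probe sets, was under 0.05. Whole lung was measured, so fewer cells of a type and less RNA per cell cannot be told apart.

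The 4 saline arrays of 72 h went against their strain labels. H2-Ea, an MHC class II gene that C57BL/6J mice do not express, read 4821 and 3622 where the label was C57BL/6J and 89.5 and 48.3 where it was BALB/c. On the other arrays it read 25.6 to 166 for C57BL/6J and 2917 to 6068 for BALB/c. These 4 arrays are named by their labels, and results that rest on them are given as labelled and without them. The 2 C57BL/6J saline 24 h arrays also stood apart, with highest intensities of 78641 and 43230 against 6888 to 21462 on the others, and they alone have titles that end in s1.

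Bpifb1, Tff2 and Reg3g were higher in saline-treated C57BL/6J lungs than in saline-treated BALB/c lungs. Bpifb1 is a member of the BPI-fold family that mucous cells of the airway secrete. On the saline 14 d arrays it read 2217 and 2002 in C57BL/6J and 659 and 594 in BALB/c, and on the saline 24 h arrays 2502 and 4486 against 470 and 630. The ranges of the strains did not overlap at either time. The log2 difference of Bpifb1 at 14 d was 1.62 ± 0.34 (SE, n = 2 arrays per group, limma adjusted p = 0.0047).

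Tff2, a trefoil peptide released with mucus that promotes the closing of epithelial wounds, read 671 and 604 in the C57BL/6J saline lungs and 238 and 111 in the BALB/c saline lungs at 14 d. At 24 h the saline values were 1132 and 1443 against 251 and 124. Each C57BL/6J value again lay above each BALB/c value. The difference at 14 d was 1.50 ± 0.45 (limma adjusted p = 0.034).

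Reg3g is a C-type lectin that binds and kills Gram-positive bacteria and is made by epithelium in response to microbes and cytokines. The brighter of its 2 probe sets, called the first here, read 887 and 877 in C57BL/6J and 218 and 298 in BALB/c after saline at 14 d, and 1167 and 2975 against 323 and 117 at 24 h. The second, whose _f_at suffix marks probes that can match several members of a sequence family, read 194 and 172 against 88.2 and 98.8 at 14 d and 355 and 649 against 72.0 and 22.0 at 24 h. Both probe sets separated the strains at both times. At 14 d the first differed by 1.49 ± 0.43 (limma adjusted p = 0.028) and the second by 0.57 ± 0.30 (limma adjusted p = 0.21), so 1 of the 2 was called.

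Of the 6 probe sets, 3 were called between the strains after saline at 14 d, each higher in C57BL/6J, beside 14.8% of all probe sets called in either direction and 8.74% called higher. With any 1 of the 4 arrays left out, Bpifb1 was still called, whereas Tff2 (adjusted p from 0.065 to 0.24) and the first Reg3g probe set (0.083 to 0.17) were not. The lowest of the 4 C57BL/6J saline arrays of 24 h and 14 d lay above the highest of the 4 BALB/c ones for Bpifb1, Tff2 and both Reg3g probe sets, which was so for 5.01% of all probe sets. With these 4 arrays per strain in 1 comparison, the differences were 2.03 for Bpifb1, 1.91 for Tff2 and 2.11 and 1.32 for the Reg3g probe sets. The C57BL/6J saline 24 h arrays entered the choice of the genes, so this comparison and the share before it are a description. The second Reg3g probe set passed the intensity needed for testing on 8 arrays. These were C57BL/6J saline 24 h, C57BL/6J bleomycin 24 h and 72 h, and the saline 72 h arrays labelled BALB/c. The second Reg3g probe set was thus tested only through groups in which it was high. Its strain differences and its part in that share carry this selection. Scgb1a1 and Clca3a1 did not separate the strains after saline, with differences at 14 d of -1.46 ± 0.85 (adjusted p = 0.26) and 0.22 ± 0.25 (adjusted p = 0.58). On the saline 72 h arrays the order was turned: Bpifb1 read 571 and 824 under the C57BL/6J label and 3612 and 3736 under the BALB/c label.

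**Figure D1:**
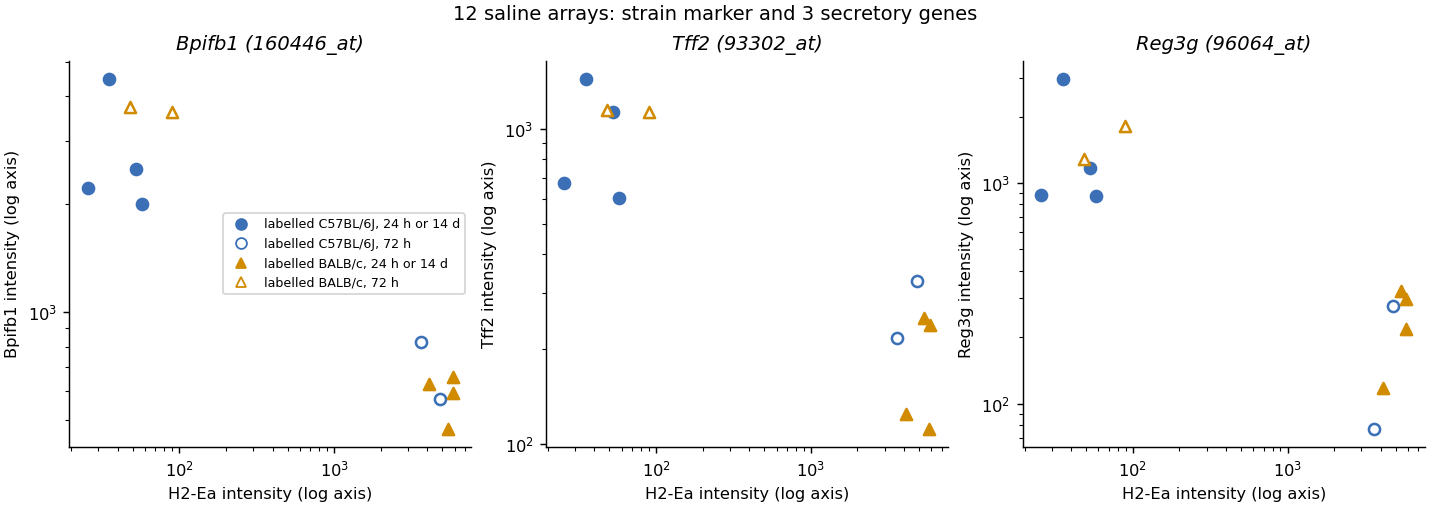
Intensity of Bpifb1, Tff2 and the first Reg3g probe set against that of H2-Ea on the 12 saline arrays, both axes logarithmic, 1 point per array; circles carry the C57BL/6J label, triangles the BALB/c label, and open symbols are the 72 h arrays. The open triangles lie with the filled circles, and the open circles with the filled triangles, for each of the 3 genes.

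For the genes that differed between the strains or after bleomycin, the 250 bases before the transcription start are shown where the RefSeq table of mouse assembly GRCm38.p6, which is the C57BL/6J sequence, holds them. The window of Bpifb1 is chr2:154200130-154200379 on the plus strand (the table's downstream start of 2), that of Reg3g is chr6:78468875-78469124 on the minus strand and that of Clca3a1 is chr3:144760978-144761227 on the minus strand. Capitals mark matches, on either strand, to TATAAA, the TATA box, or to TTCNNNGAA, the core bound by STAT proteins, which carry cytokine signals to promoters.
Bpifb1: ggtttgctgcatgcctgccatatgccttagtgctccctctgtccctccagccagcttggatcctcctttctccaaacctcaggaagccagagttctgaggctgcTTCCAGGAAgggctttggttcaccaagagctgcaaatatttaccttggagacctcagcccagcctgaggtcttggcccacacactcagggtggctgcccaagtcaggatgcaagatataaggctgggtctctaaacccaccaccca
Reg3g: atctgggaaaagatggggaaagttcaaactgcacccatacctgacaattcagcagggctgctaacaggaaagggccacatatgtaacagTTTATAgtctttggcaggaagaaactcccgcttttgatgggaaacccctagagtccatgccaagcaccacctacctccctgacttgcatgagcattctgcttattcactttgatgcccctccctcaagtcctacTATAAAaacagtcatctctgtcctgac
Clca3a1: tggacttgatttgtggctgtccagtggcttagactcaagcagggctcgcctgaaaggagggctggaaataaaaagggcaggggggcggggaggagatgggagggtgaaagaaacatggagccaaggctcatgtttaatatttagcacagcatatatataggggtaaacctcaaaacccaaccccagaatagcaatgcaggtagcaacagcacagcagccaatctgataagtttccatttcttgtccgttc
Reg3g has TATAAA from position -27 and, on the other strand, from position -161, counted from the start site, and 12.4% of 32851 windows of this length hold that motif. The Bpifb1 window holds 1 STAT match from position -146, a motif found in 7.02% of windows. No match to these 2 motifs, nor to TTGCNNAA (C/EBP proteins, 9.56% of windows) or TGTTTAC (forkhead proteins, 3.17%), was found in the Clca3a1 window. Neither did the other Bpifb1 window, chr2:154190568-154190817, hold a match. A match is a run of letters, and BALB/c sequence was not analysed here.

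In C57BL/6J lungs, Bpifb1 and Tff2 were low after bleomycin at each time. Bpifb1 read 1097 and 696 at 24 h, 724 and 788 at 72 h and 451 and 1052 at 14 d after bleomycin, against 2002 to 4486 on the saline arrays of 24 h and 14 d. Tff2 read 152 and 114 at 24 h, 106 and 224 at 72 h and 43.0 and 418 at 14 d, against 604 to 1443. For both genes the 6 bleomycin arrays lay below the 4 saline arrays, as they did for 1.99% of all probe sets. The 24 h arrays entered the choice of the genes, so this separation is a description. Tff2 passed the intensity needed for testing on 10 arrays, and the C57BL/6J 14 d b array was the only bleomycin array among them. Tff2 was thus tested almost only through saline arrays. Its calls against saline and its part in this share carry that selection. The bleomycin values of Bpifb1 in C57BL/6J (451 to 1097) covered the range of the BALB/c saline arrays of 24 h and 14 d (470 to 659), and those of Tff2 (43.0 to 418) covered theirs (111 to 251).

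At 14 d Bpifb1 fell from 2110 ± 152 to 751 ± 425 (SD, n = 2), a log2 difference of -1.48 ± 0.34 (SE, limma adjusted p = 0.013). It was no longer called without the bleomycin a array (-0.94, adjusted p = 0.24), the saline a array (-1.41, adjusted p = 0.078) or the saline b array (-1.55, adjusted p = 0.055). Tff2 was 638 ± 47.6 after saline and 230 ± 265 after bleomycin, a difference of -1.48 ± 0.45 that missed the threshold (adjusted p = 0.055). The bleomycin arrays, at 43.0 and 418, were far apart, and the difference was -0.52 (adjusted p = 0.64) without the a array and -2.44 (adjusted p = 8.0e-04) without the b array. With the 72 h saline arrays of exchanged strain label added to the control, an alternative chosen after seeing the data, the differences at 14 d were -1.87 for Bpifb1 (adjusted p = 7.0e-04) and -1.85 for Tff2 (adjusted p = 0.0049).

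At 24 h Bpifb1 differed by -1.83 ± 0.34 and Tff2 by -2.61 ± 0.45 from the saline arrays of that time. Markers of other cells were lower in the same comparison: Hba-a1, a haemoglobin chain, differed by -6.15, Sftpc, a surfactant protein of alveolar type 2 cells, by -4.90, and Ager, a marker of alveolar type 1 cells, by -4.08. The 3 red cell genes tested summed to 69122 and 40648 on those saline arrays and to 5310 and 6762 after bleomycin, and the 12 type 2 cell genes to 229234 and 174240 against 53863 and 75491. Of these lists 1 and 3 genes passed the threshold, all lower, beside 2.23% of all probe sets. The part of these markers in the differences of Bpifb1 and Tff2 was not tested. Against the saline 14 d arrays, where the red cell genes summed to 5538 and 4503, the differences were -1.18 and -1.70. At 72 h as labelled the differences were small, 0.12 for Bpifb1 and -0.52 for Tff2. Without the 4 saline 72 h arrays they were -1.70 and -2.0, and after exchanging their strain labels -2.15 and -2.30.

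In BALB/c lungs neither gene was called at 24 h or 14 d. Bpifb1 read 409 and 445 at 24 h and 406 and 650 at 14 d after bleomycin, and its differences from saline were -0.30 ± 0.34 (adjusted p = 0.73) and -0.24 ± 0.34 (adjusted p = 0.68). Tff2 read 126 and 65.2 at 24 h and 129 and 164 at 14 d, with differences of -0.56 ± 0.45 (adjusted p = 0.62) and -0.12 ± 0.45 (adjusted p = 0.89). At 72 h both were called lower as labelled (Bpifb1 -2.20, adjusted p = 0.0011; Tff2 -2.90, adjusted p = 0.0013), among 1.32% of all probe sets called. Without the 4 saline 72 h arrays neither was called (0.28 and -0.68). The difference between the strains in the response at 14 d was -1.24 ± 0.48 for Bpifb1 (adjusted p = 0.12) and -1.36 ± 0.64 for Tff2 (adjusted p = 0.20), so a strain difference in the fall of these genes was not shown at that time. Without the bleomycin a array of C57BL/6J it was -0.70 (adjusted p = 0.41) for Bpifb1 and -0.40 (adjusted p = 0.70) for Tff2, and without the b array it was called for both, at -1.78 (adjusted p = 0.021) and -2.31 (adjusted p = 0.0098).

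**Figure D2:**
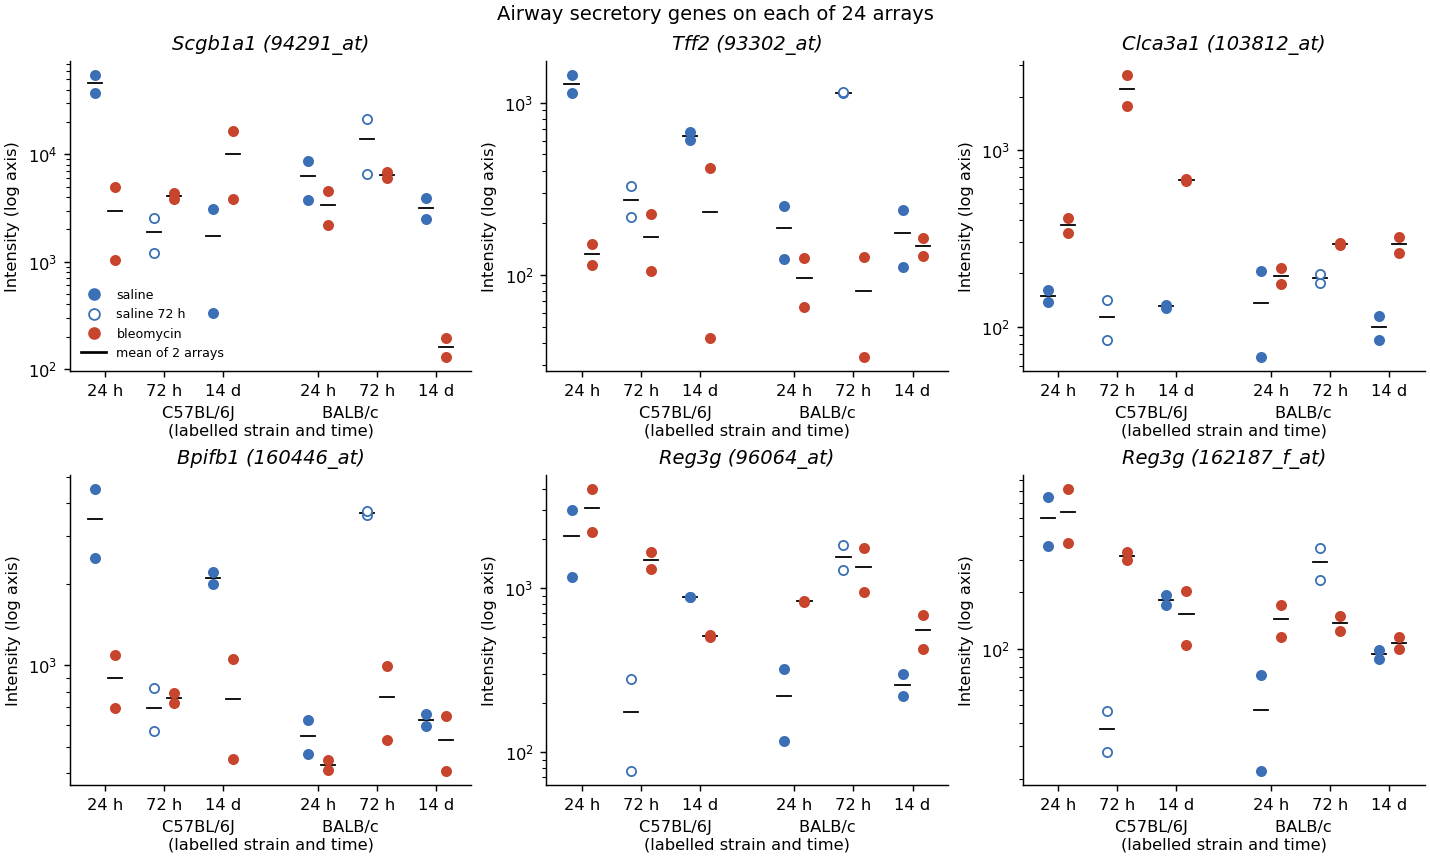
Intensity of each of the 6 probe sets on the 24 arrays, on a logarithmic axis, by labelled strain and time; blue points are saline, open blue points the saline 72 h arrays, red points bleomycin, and black bars the mean of 2 arrays. Bpifb1 and Tff2 show high blue and low red points in C57BL/6J at 24 h and 14 d, Clca3a1 shows red above blue in C57BL/6J at each time, and Scgb1a1 spans the widest range.

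On the BALB/c arrays Reg3g read higher after bleomycin than after saline at 24 h and 14 d, though not against the saline 72 h arrays as labelled, and no test against the saline arrays of the same time called it. Its first probe set read 835 and 825 at 24 h, 951 and 1753 at 72 h and 428 and 689 at 14 d after bleomycin, against 117 to 323 on the 4 BALB/c saline arrays of 24 h and 14 d. Its second read 172 and 115, 125 and 150, and 99.8 and 116, against 22.0 to 98.8. The 6 bleomycin arrays lay above the 4 saline arrays for both, as they did for 2.51% of all probe sets, by a narrow margin for the second. Each of these BALB/c values of the second lay below the intensity needed for testing. The second was tested only through C57BL/6J arrays and the saline 72 h arrays labelled BALB/c.

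The matched tests in BALB/c did not reach the threshold at 24 h or 14 d. The first probe set differed by 1.65 ± 0.43 at 24 h (adjusted p = 0.10) and by 0.87 ± 0.43 at 14 d (adjusted p = 0.19), and the second by 0.77 ± 0.30 (adjusted p = 0.26) and 0.11 ± 0.30 (adjusted p = 0.85). At 24 h limma called 0 of the 6 probe sets, with 2 of them, both of Reg3g, at an unadjusted p under 0.05. Of all probe sets 0.218% were called and 13.6% had an unadjusted p under 0.05. At 72 h as labelled the first probe set read 1821 and 1290 after saline, and the differences were -0.23 and -0.72. Without the 4 saline 72 h arrays the first probe set was higher by 2.12 (adjusted p = 0.0034, with 6.16% of all probe sets called), and with their strain labels exchanged by 2.48, given without a p-value because the control is then the pair of arrays labelled C57BL/6J that entered the choice of Reg3g. The second was higher by 0.52 (adjusted p = 0.24) and 0.83.

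In C57BL/6J Reg3g read highest at 24 h after bleomycin. The first probe set read 4004 and 2194 at 24 h, 1650 and 1299 at 72 h and 503 and 515 at 14 d, so its highest values came early and those of 14 d lay below the saline values of 887 and 877. The second read 714 and 370, 300 and 329, and 104 and 203. The difference from saline at 14 d was -0.70 ± 0.43 (adjusted p = 0.37) for the first and -0.19 ± 0.30 (adjusted p = 0.77) for the second, neither called. The strain difference in the response at 14 d was -1.57 ± 0.61 (adjusted p = 0.12) for the first and -0.30 ± 0.42 (adjusted p = 0.71) for the second, and at 24 h it was -1.01 and -0.69, also not called. The difference from saline in C57BL/6J at 24 h was 0.64 ± 0.43 and 0.086 ± 0.30 against the saline arrays of that time, and 1.65 and 1.15 against those of 14 d. At 72 h it was 2.64 and 1.66 as labelled, but 0.17 and 0.032 without the 4 saline 72 h arrays, and for the first probe set -0.063 with their labels exchanged. Between the strains after bleomycin, the first probe set was 1.73 ± 0.43 higher in C57BL/6J at 24 h, 0.17 ± 0.43 higher at 72 h and -0.083 ± 0.43 apart at 14 d (adjusted p = 0.92).

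Clca3a1 was higher after bleomycin in both strains, most of all in C57BL/6J at 72 h. The gene, called Clca1 in the older annotation, encodes a protein of the CLCA family, and the cells that made it were not identified here. The present Clca1, another gene of that family, was not among the members. That gene was called for the strain difference in response at 72 h as labelled (2.31). In C57BL/6J Clca3a1 read 413 and 340 at 24 h, 1771 and 2641 at 72 h and 663 and 684 at 14 d after bleomycin. On the C57BL/6J saline arrays it read 138 and 161 at 24 h, 133 and 127 at 14 d, and 84.2 and 142 under that label at 72 h. The lowest bleomycin array was above the highest saline array. For the 6 bleomycin arrays against the saline arrays of 24 h and 14 d this was so for 2.01% of all probe sets. Clca3a1 exceeded 225.7, the intensity a probe set had to pass on at least 2 arrays to be tested, on 10 arrays. All 10 were bleomycin arrays, and the saline arrays of both strains read at most 206. The probe set was thus tested only through groups in which it was high. Its calls against saline and the share given here carry that selection.

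At 14 d Clca3a1 rose in C57BL/6J from 130 ± 3.87 to 674 ± 14.8 (SD, n = 2), by 1.79 ± 0.25 on the log2 scale (SE, limma adjusted p = 6.3e-04), and it was called with any 1 array left out. Clca3a1 and Bpifb1 were the 2 of 6 probe sets called in that comparison, beside 7.43% of all probe sets. The differences at 24 h and 72 h were 0.95 ± 0.25 and 3.48 ± 0.25, and the latter was 3.29 without the 4 saline 72 h arrays and 3.02 with their strain labels exchanged. Within the bleomycin arrays of C57BL/6J, Clca3a1 differed by 2.27 ± 0.25 between 24 h and 72 h and by -1.56 ± 0.25 between 72 h and 14 d.

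In BALB/c Clca3a1 read 174 and 215 at 24 h, 298 and 291 at 72 h and 262 and 323 at 14 d after bleomycin, against 67.3 and 206, 177 and 197, and 115 and 83.7 after saline. The values overlapped at 24 h and were apart at 72 h and 14 d. All these saline values lay below 225.7, so the selection for testing rested on bleomycin arrays here too. At 14 d Clca3a1 rose by 1.01 ± 0.25 (limma adjusted p = 0.015), but leaving out the bleomycin b array (adjusted p = 0.14), the saline a array (0.059) or the saline b array (0.12) ended the call. The differences at 24 h, 0.39 ± 0.25 (adjusted p = 0.51), and at 72 h, 0.47 ± 0.25 (adjusted p = 0.54), were not called as labelled. Without the 4 saline 72 h arrays the one at 72 h was 0.92 (adjusted p = 0.023), and against the saline 14 d arrays 1.02 (adjusted p = 0.017). Within the BALB/c bleomycin arrays its differences between 24 h and 72 h (0.44 ± 0.25, adjusted p = 0.29) and between 72 h and 14 d (-0.012 ± 0.25, adjusted p = 0.98) were not called.

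After bleomycin, Clca3a1 was higher in C57BL/6J than in BALB/c by 0.71 ± 0.25 at 24 h, 2.55 ± 0.25 at 72 h and 1.0 ± 0.25 at 14 d (limma adjusted p = 0.015 at 14 d, with 15.7% of all probe sets called). At 14 d the call was lost without the bleomycin a array of C57BL/6J (adjusted p = 0.11) or either BALB/c bleomycin array (0.061 for a and 0.053 for b). The strain difference in the response was 0.56 ± 0.36 at 24 h, 3.01 ± 0.36 at 72 h as labelled (2.36 without the 4 saline arrays and 2.09 with their labels exchanged) and 0.78 ± 0.36 at 14 d (adjusted p = 0.19). The 72 h values kept their direction under each control tried, but each control was set against the same bleomycin arrays. Those of C57BL/6J entered the choice of Clca3a1, so the kept direction is a description. At 14 d a difference in response was not shown.

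**Figure D3:**
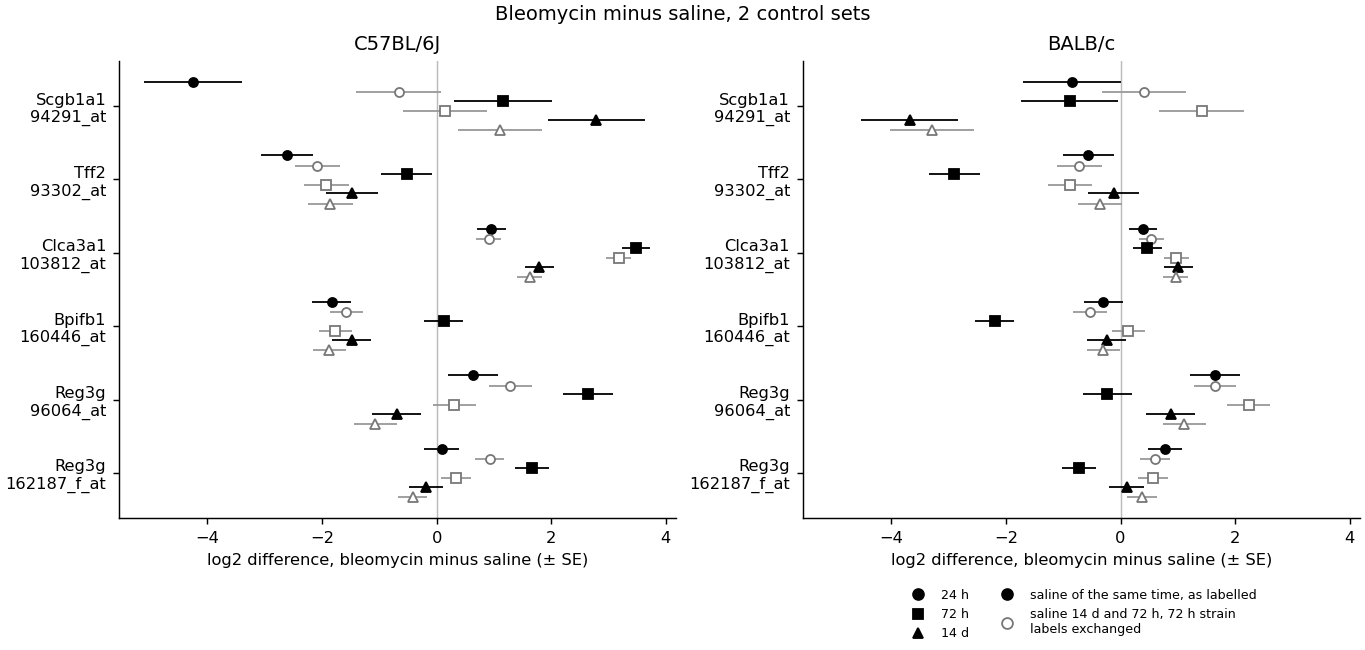
Log2 difference between bleomycin and saline for each probe set, with its standard error, in C57BL/6J (left) and BALB/c (right); circles are 24 h, squares 72 h and triangles 14 d, filled against the saline arrays of the same time as labelled and open against the saline arrays of 14 d and of 72 h with exchanged strain labels. Bpifb1 and Tff2 lie left of 0 in C57BL/6J at each time against the second control, Clca3a1 lies right of 0 throughout, and Scgb1a1 changes side with the control.

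Scgb1a1 spanned the widest fold range of the 6 probe sets, with large gaps between arrays of 1 group. Arrays a and b read 54857 and 37086 for C57BL/6J saline at 24 h and 3118 and 335 at 14 d, while those labelled saline 72 h read 2572 and 1211. After bleomycin C57BL/6J read 1029 and 4924 at 24 h, 4346 and 3819 at 72 h and 16391 and 3855 at 14 d. In this strain the 2 arrays of a group differed by up to 9.31-fold, and no treatment or time stood apart other than saline at 24 h, the group whose whole scale was extended at the top.

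The direction in C57BL/6J rested on the control. At 24 h Scgb1a1 was -4.25 ± 0.85 from the saline arrays of that time and 1.02 from those of 14 d. At 14 d it was 2.78 ± 0.85 (adjusted p = 0.054), not called, and 4.24 (adjusted p = 0.019) without the saline a array. That large value compares with the saline b array, at 335, alone. Without the bleomycin b array it was 3.82 (adjusted p = 0.015), but without the bleomycin a array 1.75 (adjusted p = 0.47) and without the saline b array 1.33 (adjusted p = 0.46). It was also called, at 2.78, without either bleomycin 24 h array (adjusted p = 0.043). With the 72 h saline arrays of exchanged label in the control it was 1.10 (adjusted p = 0.36).

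In BALB/c lungs Scgb1a1 read 3769 and 8703 after saline at 24 h, 2476 and 3922 at 14 d, and 6632 and 21462 under that label at 72 h. After bleomycin it read 2193 and 4517 at 24 h, 6871 and 6008 at 72 h, and 194 and 129 at 14 d. Those last 2 were the lowest of the 24 arrays, and on them Scgb1a1 ranked at percentiles 35.0 and 30.1 of all probe sets. At 14 d its difference from saline was -3.68 ± 0.85 (limma adjusted p = 0.011), beside 13.3% of all probe sets called. Scgb1a1 and Clca3a1 were the 2 of 6 probe sets called there, in opposite directions. The call was lost without the bleomycin b array (-3.49, adjusted p = 0.094), the saline a array (-4.00, adjusted p = 0.052) or the saline b array (-3.36, adjusted p = 0.088).

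The same 2 arrays entered the further calls of Scgb1a1 at 14 d. Within the BALB/c bleomycin arrays it was lower at 14 d than at 72 h (log2 difference -4.70 ± 0.85, adjusted p = 0.010, 2.64% of probe sets called). That call was lost without the 14 d b array (-4.51, adjusted p = 0.069), the 72 h a array (-4.60, adjusted p = 0.11) or the 72 h b array (-4.80, adjusted p = 0.070). From 24 h to 72 h limma called 0 of the 6 probe sets in BALB/c bleomycin lungs, none at an unadjusted p under 0.05, beside 5.2% of all probe sets called and 24.6% at that unadjusted p. After bleomycin at 14 d Scgb1a1 was 5.01 ± 0.85 higher in C57BL/6J than in BALB/c (adjusted p = 0.0015). The strain difference in the response at 14 d was 6.46 ± 1.2 (adjusted p = 0.0064), the 1 call among 6 probe sets beside 7.38% of all, and 4.39 when the 72 h saline arrays of exchanged label joined the control.

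Scgb1a1 moved with the bright end of each array. The highest intensity of any other probe set was 10674 and 6888 on the BALB/c bleomycin 14 d arrays, 9682 on the C57BL/6J saline 14 d b array, and 78641 and 43230 on the C57BL/6J saline 24 h arrays. The 3 arrays with the lowest Scgb1a1 thus had the 3 lowest maxima and the 2 with the highest Scgb1a1 the 2 highest, and the part of this in the Scgb1a1 differences was not tested. Sftpb, another surfactant protein, fell by 3.16 on the log2 scale in BALB/c at 14 d (adjusted p = 0.018), and Ager fell by 3.88 (adjusted p = 0.0075). Cyp2f2, a club cell enzyme, read 3995 ± 1330 after bleomycin against 7308 ± 713 after saline there (SD, n = 2) and was not called (-0.89, adjusted p = 0.059). Of 12 tested type 2 cell genes 5 were called lower, beside 13.3% of all probe sets called in either direction. The summed intensity of the 12 genes was 60143 and 35313 after bleomycin against 79063 and 77118 after saline. That of the 16 club cell genes without Scgb1a1 was 52458 and 35455 against 74238 and 68540. Their part in the Scgb1a1 value was not tested.

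**Figure D4:**
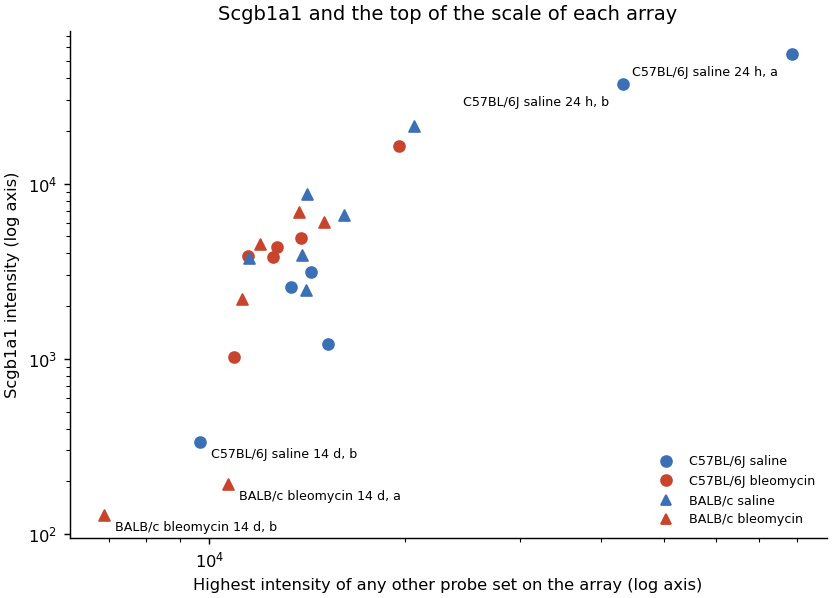
Intensity of Scgb1a1 against the highest intensity of any other probe set on the same array, both axes logarithmic, 1 point per array; circles are C57BL/6J and triangles BALB/c as labelled, blue is saline and red bleomycin. The BALB/c bleomycin 14 d arrays and the C57BL/6J saline 14 d b array lie at the lower left and the C57BL/6J saline 24 h arrays at the upper right.

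Counts of calls for the remaining comparisons are given as description. At 24 h in C57BL/6J, 3 of 6 probe sets passed the threshold (Scgb1a1, Tff2 and Bpifb1), beside 2.23% of all probe sets, but Scgb1a1 did not without the bleomycin a (-3.17) or saline a array (-3.97), nor Bpifb1 without the bleomycin b (-1.54) or saline b array (-1.42). At 72 h as labelled 3 passed (Clca3a1 and both of Reg3g), beside 6.62%. For the strain difference in response, limma called 0 of 6 at 24 h, 3 of them at an unadjusted p under 0.05, beside 0.023% and 9.64% of all, and 4 of 6 at 72 h as labelled, beside 3.08%. After bleomycin, the strains differed in both Reg3g probe sets at 24 h (1.87% of all called) and in Clca3a1 at 72 h (1.64%), and neither Reg3g probe set was called without the C57BL/6J bleomycin 24 h a array (1.31 and 0.98) or without either BALB/c bleomycin 24 h array (1.74 and 1.56, 1.72 and 1.21). With each of the 24 arrays left out in turn, the first Reg3g probe set lost that call in 16 runs, most of which left out an array from outside the comparison, and the second in 3. Clca3a1 was the 1 called from 24 h to 72 h (0.448%) and from 72 h to 14 d (4.42%) in C57BL/6J bleomycin lungs, the latter not without the 72 h b array (-1.28).

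Among other genes of club and secretory cells, those called after bleomycin at 14 d were mostly lower, whereas the members called went both ways. Of 16 tested genes of a list of club and secretory cell genes, members left out, 6 were called lower and 0 higher in C57BL/6J at 14 d, with a median of -0.21 beside -0.07 over 6464 genes, of which 7.74% were called. Pon1, an esterase, differed by -1.97, Cckar, the cholecystokinin receptor, by -1.10, and Foxa1, a forkhead factor of airway epithelium, by -1.05. In BALB/c at 14 d 3 were called lower and 1 higher (median -0.43 beside 0.06, 13.2% of all genes called), with Hp at -1.94, Aldh1a1, a retinaldehyde-oxidising enzyme, at -1.37 and Gsto1, a glutathione transferase, at 1.08. After saline at 14 d, 3 were higher and 0 lower in C57BL/6J (14.8% of all genes called), among them Gsto1 (1.83) and Pon1 (1.30).

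At 14 d 7.43% of all probe sets were called in C57BL/6J, where 22.2% had an unadjusted limma p under 0.05, and 13.3% in BALB/c. Beside this, genes of goblet cells and mucus were mostly not called. Of 11 tested, limma called 0 in C57BL/6J at 14 d, with 1 at an unadjusted p under 0.05, and 2 lower in BALB/c at 14 d, Muc1, a membrane mucin, at -1.11 and Creb3l1, a factor of the secretory pathway, at -0.74. Muc5ac, the gel-forming mucin that defines goblet cells, was too dim to be tested, at 4.39 to 31.6 on the 24 arrays. Of 19 tested genes of secreted antimicrobial proteins and lectins, 1 was called in C57BL/6J at 14 d, Saa3, an acute phase protein, higher by 4.43. In BALB/c at 14 d, Ltf, the iron-binding lactoferrin, was called higher by 1.70, and Hp, the beta-defensin Defb2 (-1.23) and the lysozyme Lyz2 (-0.73) lower. Of 11 tested ciliated cell genes, limma called 0 in C57BL/6J at 14 d (3 at an unadjusted p under 0.05) and 1 in BALB/c, Tuba1a, a tubulin (-1.03).

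Markers of tissues that can enter a lung sample were read on each array. The stomach and gut list had 2 tested genes, whose summed intensity was 397 to 804 over the 24 arrays, and none was called in the 14 d comparisons of bleomycin with saline or of the strains. For the salivary list the 1 tested gene, Bpifa2, read 37.7 to 362. It was called lower in BALB/c at 14 d (-0.84, adjusted p = 0.038) and higher in C57BL/6J than in BALB/c after bleomycin at 14 d (0.99, adjusted p = 0.017), and it passed the threshold in C57BL/6J at 24 h (1.09) and, as labelled, at 72 h (0.99). The basal cell list had 3 tested genes and its keratin Krt5 was not tested, at 21.1 to 186. Sprr1a of that list, a protein of the cornified envelope, was higher in C57BL/6J at 14 d (1.41, adjusted p = 0.0080) and at 72 h as labelled (2.50), and higher than in BALB/c after bleomycin at 14 d (1.34, adjusted p = 0.0078) and 72 h (2.27), in each of which Clca3a1 was also higher. Of 6 tested genes of squamous epithelium of the mouth and gullet, Lor (-1.13) and Krt6a (-0.72) were called lower in C57BL/6J than in BALB/c after saline at 14 d. Of all probe sets 14.8% were called there. The type 2 cytokine axis, which drives mucus production, had 9 tested genes. In C57BL/6J at 14 d Arg1, arginase, was called higher by 4.30 and Gata3 (-0.87) and Stat6 (-0.63) lower. Of all probe sets 7.43% were called in that comparison. In C57BL/6J at 72 h as labelled, Arg1 (3.25), Ccl17 (3.02) and Chil3 (2.47) passed the threshold, all higher, beside 6.62% of all probe sets. Chil3 was also 2.41 higher in C57BL/6J than in BALB/c after saline at 14 d. The part of these markers in the differences of the members was not tested.

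The genes whose levels were most like each member's are a description over the means of 9 groups, left after setting aside C57BL/6J saline 24 h and both saline 72 h groups. They were Chad (r = 0.976), Gnmt and Car14 for Tff2, Dab2 (r = 0.946), Lrrc59 and Mthfd2 for Clca3a1, and Atp7b (r = 0.894), Acaa1b and Laptm4b for Bpifb1. For Reg3g they were Mbd1 (r = 0.965), Tnpo2 and Rprm. For Scgb1a1 they were Scd2 (r = 0.971), Rps28 and Hsp90aa1. Over all 24 arrays Scd2 read 2520 to 14170.5 and Rps28 1400.5 to 20532, so that they too were among the bright probe sets. Over all 12 groups, Bpifb1 and Tff2 were each among the 3 genes most like the other (r = 0.942).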

How the data were processed

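Total RNA of mouse lung was measured on 24 Affymetrix arrays. The authors deposited 1 linear intensity per probe set and array. The algorithm that made these intensities, its version and any scaling are not given in the sources used here; each array's mean with the lowest and highest 2% trimmed was 797 to 801, which points to a scaling to a common trimmed mean, which is inferred. Groups came from the titles. Probe sets were assigned to genes with the array annotation, and symbols, starts and promoter windows came from RefSeq tables on GRCm38.p6.

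The 66 control probe sets of 12488 were left out. The 8710 probe sets that exceeded 225.7 (percentile 40 of all values) on at least 2 arrays were tested. Log2(intensity + 91.7), the offset being the median lower quartile, was the input to limma 3.58.1 (R 4.3.3), with 12 group means, 12 residual degrees of freedom, a variance trend and Benjamini-Hochberg adjustment over all probe sets tested; the tests are two-sided. The number of arrays limits the precision. The fit was tested on simulated data. Genes other than the members are named when they were among up to 4 called genes with the largest differences of a list, or among the 3 most like a member; markers too dim to test, Cyp2f2, Sftpb, Ager and H2-Ea were named after their values were seen. List statements use 1 probe set per gene. The members and lists were chosen with earlier results of these data known, so the p-values are not independent evidence.

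Alternatives were quantile normalization, an offset of 45.8 or 275, the filter dropped or set at percentile 60, a fit without the variance trend, the array letter as a replicate block, other saline controls, and each array left out in turn. The letters do not pair the samples: a-minus-b differences of bleomycin and saline arrays of the same strain and time correlated at -0.07 to 0.31.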

Additional observations from a re-analysis of the deposited data

Results flagged for a closer look

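In 5 cases the difference between the strains in the response to bleomycin was itself called by limma. At 72 h as labelled these were Clca3a1 (3.01 on the log2 scale), Bpifb1 (2.32) and both Reg3g probe sets (2.87 for the first and 2.38 for the second), each with the C57BL/6J value above the BALB/c value. They rest on the 4 saline 72 h arrays, whose H2-Ea intensity goes against their strain labels. The C57BL/6J arrays of 72 h also entered the choice of Clca3a1 and Reg3g, so these calls are a description. Clca3a1 was moreover tested only through bleomycin arrays. The second Reg3g probe set was tested only through C57BL/6J arrays and the saline 72 h arrays labelled BALB/c. Of the 4, Clca3a1 is the one whose direction held under each control tried, always with the same bleomycin arrays. At 14 d it was Scgb1a1 (6.46), with higher values after bleomycin in C57BL/6J and lower values in BALB/c. The C57BL/6J difference alone was not called (2.78, limma adjusted p = 0.054) and was 1.33 without the saline b array. The arrays with the lowest Scgb1a1 also had the lowest maxima, and the part of this was not tested.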

How the results depend on the processing

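Among values called as labelled or under the alternative, 25 turned direction, all with another saline control. A further 28 values turned that were called in neither, among them the strain difference of Tff2 at 72 h (2.37 to -1.32 without the 4 arrays), 25 of them with another control and 3 with quantile normalization. The 4 controls, in order, were the saline arrays of 24 h and 14 d with the 4 arrays left out, the 4 arrays with strain labels exchanged, the saline 14 d arrays, and, added after seeing the data, the exchanged 72 h arrays with those of 14 d. Bpifb1 at 72 h became -1.70, -2.15, -1.38 and -1.76 in C57BL/6J, 0.28, 0.077, 0.20 and 0.14 in BALB/c, and -1.98, -2.23, -1.57 and -1.90 for the strain difference in response. The first Reg3g probe set became 2.12, 2.48, 2.0 and 2.24 in BALB/c and -1.95, -2.54, -1.32 and -1.93 for the strain difference, and -0.063 in C57BL/6J with exchanged labels. The second Reg3g probe set became -0.49, -0.73 and, under the last control, -0.23 for the strain difference. Scgb1a1 in C57BL/6J at 24 h became 1.02 against the saline 14 d arrays. The calls among the 6 probe sets for the strain difference at 72 h fell from 4 to 2, 0, 1 and 1 (at 0, 4 had an unadjusted limma p under 0.05). Those in BALB/c at 72 h went from 2 to 1 with exchanged labels. Under the last control those in BALB/c at 24 h went from 0 to 1, and those for the strain difference at 14 d from 1 to 3. Between the strains 24 h after bleomycin, 2 calls became 1 with an offset of 45.8, with no filter, with no variance trend and with the replicate block (array letter); the cause was not tested. The replicate block moved no other count of calls by over 1.5 times.

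With each array left out in turn, the calls ranged from 2 to 4 in C57BL/6J at 24 h, 3 to 3 at 72 h and 1 to 4 at 14 d, and from 0 to 0, 2 to 2 and 0 to 2 in BALB/c. For the strain difference in response they ranged from 0 to 0 at 24 h, 2 to 5 at 72 h and 1 to 3 at 14 d. Between the strains after bleomycin they ranged from 0 to 2, 1 to 1 and 1 to 2, and after saline at 14 d from 1 to 3. Between times they ranged from 1 to 1 and 0 to 1 in C57BL/6J and from 0 to 0 and 0 to 1 in BALB/c. With 2 arrays per group, a call lost this way also reflects fewer arrays. A lone array is then assumed to vary like the other groups. Of the other alternatives 756 values or counts kept their direction and side of the threshold. Quantile normalization changed no direction of a called member.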
